A study of Mus musculus with 2 samples.

Results

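The mouse microRNA genes numbered Mir1800 to Mir1999 were examined in small RNA libraries of the newborn heart. The members were all rows of the deposited gene tables whose GENCODE symbol is Mir followed by a number in that range, with any suffix. By this rule 58 of the 1973 genes counted were members, and the numbers in use ran from Mir1893 to Mir1983. A further 6 genes of the range in the annotation (Mir1839, Mir1843a, Mir1843b, Mir1892, Mir1897 and Mir1949) were not analysed here. The labels give 1 group of 2 libraries, each made from the total RNA of 1 whole heart of a B6NCrl mouse (a C57BL/6N substrain) at postnatal day 0, with molecules shorter than 30 nt. They name no treatment or altered allele, and sex was not collected. Replicate 1 was the heart of pup 1 and replicate 2 that of pup 3. Whole hearts hold many cell types, so a low level in all cells and a high level in few cells cannot be told apart. With 1 library per heart, animal and library preparation cannot be told apart either.

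A microRNA is cut from a hairpin in a longer transcript, first by Drosha in the nucleus and then by Dicer, and the mature strand guides Argonaute to target RNAs through its seed, bases 2 to 8. Numbers are given in order of registration, so low numbers hold the long-known, mostly conserved microRNAs and the numbers studied here hold genes found later by sequencing of mouse tissue. Some hairpins registered in this way reach the Dicer step by other routes. In a mirtron the hairpin is a whole short intron released by splicing, and other small RNAs are cut from tRNA or snoRNA transcripts. How young each member is in evolution was not tested.

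The precursors of Mir1983, Mir1981 and Mir1982 are shown because their annotation differs from that of the other members (sequences from RefSeq, GRCm38.p6, the same build as mm10). The precursor of Mir1983 (chr13:21896918-21897049, minus strand, 132 nt) spans the tRNA gene n-TItat14 at 21896938 to 21897031, in capitals here.
Mir1983: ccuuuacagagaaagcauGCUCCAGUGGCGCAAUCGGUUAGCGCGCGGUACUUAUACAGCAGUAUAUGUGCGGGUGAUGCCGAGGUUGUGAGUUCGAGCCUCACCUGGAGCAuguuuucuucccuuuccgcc
The tRNA gene took up 94 nt, with 18 nt of the precursor before it and 20 nt after it. The RefSeq gene table gives no strand for this tRNA gene. Of the 21 nt of the mature miR-1983, 13 lay within the tRNA gene and 8 past its end. Among 1894 genes with a name in the annotation, Mir1983 was the 1 gene that overlapped a RefSeq tRNA gene.

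The precursors of Mir1981 (chr1:184822407-184822488, minus strand) and Mir1982 (chr10:80828797-80828870, plus strand) are each a whole annotated intron, the arrangement of a mirtron. Capitals mark the first and last 2 bases, which are the GU and AG of a spliced intron.
Mir1981: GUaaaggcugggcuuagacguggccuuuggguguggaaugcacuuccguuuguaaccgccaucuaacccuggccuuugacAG
Mir1982: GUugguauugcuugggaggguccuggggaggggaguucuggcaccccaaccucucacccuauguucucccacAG
The host of Mir1981 was Marc2, a mitochondrial molybdenum enzyme gene, and that of Mir1982 was Oaz1, which encodes an inhibitor of ornithine decarboxylase. In Oaz1 another, non-coding, transcript carries the same stretch as exon. Both ends of the hairpin met the ends of an intron in 22 of the 1894 named genes (1.16%), of which these 2 were the members.

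Mature sequences of the leading members are shown with the seed in capitals. The gene counts pool both arms and do not tell which arm was sequenced. RefSeq lists another arm as well for Mir1930, Mir1968, Mir1982, Mir1943 and Mir1947, so the arm shown need not be the one sequenced. RefSeq listed a mature sequence for 10 of the 11 members with 10 or more counts in both libraries.
miR-1983: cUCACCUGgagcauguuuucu
miR-1981-5p: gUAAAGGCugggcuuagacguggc
miR-1981-3p: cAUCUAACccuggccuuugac
miR-1955-5p: aGUCCCAGgaugcacugcagcuuuu
miR-1930-5p: aCCUCCAUaguaccugcagcgu
miR-1968-5p: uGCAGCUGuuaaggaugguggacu
miR-1982-3p: uCUCACCCuauguucucccacag
miR-1943-5p: aAGGGAGGaucugggcaccugga
miR-1947-3p: gCACUGAGcuagcucucccucc
Of the 18 mature sequences of these 10 members, 3 shared their seed with another mouse microRNA, and no seed was shared among the 10. These were miR-1983, which has the seed of miR-412-3p, miR-1943-5p, which has that of miR-149-3p, and miR-1947-3p, which has that of miR-674-5p. Over all mature sequences listed, of genes counted here or not, 556 of 1738 shared a seed with that of another gene.

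Sequencing depth was 6373797 and 7630427 counts on the strand of the genes. Levels are given as CPM, counts per 1000000 of the library's sense-strand total. A count of 0 allows a level of up to 0.471 CPM in replicate 1 and 0.393 CPM in replicate 2, the level of 3 counts. These limits, like the intervals given later, allow for counting error alone. The heart muscle marker Mir208b was at 104936 ± 4545 CPM (SD, n = 2), Mir208a at 13703 ± 2426 CPM and Mir499 at 4977 ± 183 CPM. The hepatocyte marker Mir122 was at 40.2 ± 6.21 CPM and the skeletal muscle marker Mir206 at 87.4 ± 22.8 CPM. The epithelial markers Mir203 and Mir200b were at 174 and 32.1 CPM. Of the red cell markers Mir451a was at 1084 ± 217 CPM, Mir144 at 91.5 ± 28.8 CPM and Mir486 at 71.3 CPM. Mir451a was higher in replicate 2 (931 and 1237 CPM) and Mir144 lower (112 and 71.2 CPM). A small RNA read spans a whole molecule, so levels of different genes were compared as CPM without division by length, and differences in ligation between sequences are not removed.

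The set as a whole was scarce, and 1 gene made up most of it. Its members took 0.0716% of the counts in replicate 1, with exact Clopper-Pearson 95% bounds of 0.0695% and 0.0737%. In replicate 2 they took 0.0781%, with bounds of 0.0761% and 0.0801%, which gives a mean of 0.0748% ± 0.00457 (SD, n = 2). Mir1983, the precursor that holds a tRNA gene, gave 81.4% of the members' counts in replicate 1 and 77.8% in replicate 2. Without it the share was 0.0133% in replicate 1 and 0.0174% in replicate 2, a mean of 0.0153% ± 0.00288.

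Detection was uneven. With 10 or more counts in both libraries taken as detected, 11 of 58 members were detected, against 358 of all 1973 genes (18.1%). Another 18 members had some counts but fewer than that, and 29 had 0 counts in both hearts. The background of 18.1% includes 922 genes without a Mir number, of which 2 were detected. Over the 1051 genes with a number or a let-7 name 33.9% were detected, so the members lay near the first background and below the second. Of the members 50% had 0 counts in both hearts, against 63.7% of all 1973 genes and 35.3% of the 1051.

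**Figure D1:**
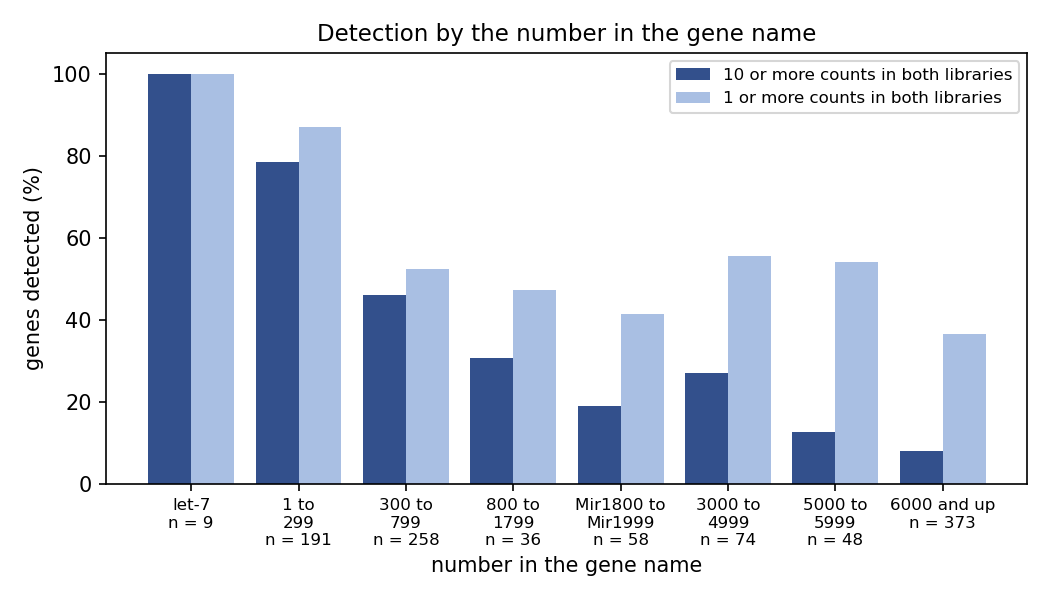
Percentage of genes detected in both newborn heart libraries (y axis) for genes grouped by the number in their name (x axis, n genes each). Dark bars are genes with 10 or more counts in both libraries and light bars genes with 1 or more. Genes from 2000 to below 3000 (0 of 4 detected) and genes without a number are not shown. The dark bars go from 78.5% for numbers below 300 to 19.0% for Mir1800 to Mir1999 and 8.04% for 6000 and up.

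By number, detection was highest for let-7 and the lowest numbers. Of the genes numbered below 300, 150 of 191 (78.5%) were detected, and of those from 300 to below 800 it was 119 of 258 (46.1%). The members, at 19.0%, lay below the 30.6% of the 36 genes from 800 to below 1800 and the 27.0% of the 74 genes from 3000 to below 5000. They lay above the 12.5% of the 48 genes from 5000 to below 6000 and the 8.04% of the 373 genes numbered 6000 and up. With 1 or more counts in both libraries the first of these orders turned, at 41.4% of members against 54.2% of the genes from 5000 to below 6000. By the share at 0 counts in both libraries both orders turned. It was 50% of members, against 35.4% of the genes from 5000 to below 6000 and 44.2% of those numbered 6000 and up. Of the 4 genes from 2000 to below 3000, 0 were detected. No difference between the number groups was tested. The median level of detected members was 7.08 CPM, against 168 CPM for detected genes numbered below 300, 18.1 CPM for 800 to below 1800 and 2.79 CPM for 6000 and up. Over all detected genes the median was 64.6 CPM.

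Mir1983 (ENSMUSG00000088148.1) had 3716 counts in replicate 1 and 4631 in replicate 2, which is 583 and 607 CPM. Both hearts were thus close, at 595 ± 16.9 CPM (SD, n = 2), and the gene ranked 90 of 1973. It has no GENCODE host on its strand, and the RefSeq tRNA gene that it spans was not counted as a host. The endothelial Mir126a, the most abundant gene, exceeded it by 247-fold and 201-fold in the 2 hearts. Whether the reads came from the hairpin or from the tRNA transcript was not tested, since the tables give no position within the gene.

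Mir1981 (ENSMUSG00000088559.1), the Marc2 intron, had 468 and 814 counts, or 73.4 and 107 CPM. It was the second member, at 90.1 ± 23.5 CPM and rank 158, and Mir1983 exceeded it by 6.61-fold on the means. Mir1982 (ENSMUSG00000087993.1), the Oaz1 intron, had 36 and 65 counts, or 5.65 and 8.52 CPM. Among the 22 genes whose hairpin is a whole intron, Mir1981 ranked 2 and Mir1982 ranked 4 by mean CPM, with Mir3102 at rank 1 (139 CPM) and Mir877 at rank 3 (56.8 CPM).

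The members within longer introns or in exons were lower than Mir1981. Mir1955 (chr2:92191977-92192074, plus strand), in an intron of Phf21a, a gene of a histone demethylase complex, had 87 and 118 counts, or 13.6 and 15.5 CPM. Mir1930 (chr10:77641224-77641307, plus strand), which overlaps a non-coding exon of the ubiquitin-conjugating enzyme gene Ube2g2, had 68 and 67 counts, or 10.7 and 8.78 CPM. Mir1968 (chr8:13189031-13189098, minus strand), in an intron of Grtp1, had 55 and 61 counts, or 8.63 and 7.99 CPM. For each of these 3 the exact Poisson 95% intervals of the hearts overlapped. Mir1955, Mir1930 and Mir1968 kept this order in both hearts. The counting intervals of Mir1930 and Mir1968 overlapped in both, however, and those of Mir1955 and Mir1930 overlapped in replicate 1 alone. The values of Mir1968 and Mir1982 did not separate.

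**Figure D2:**
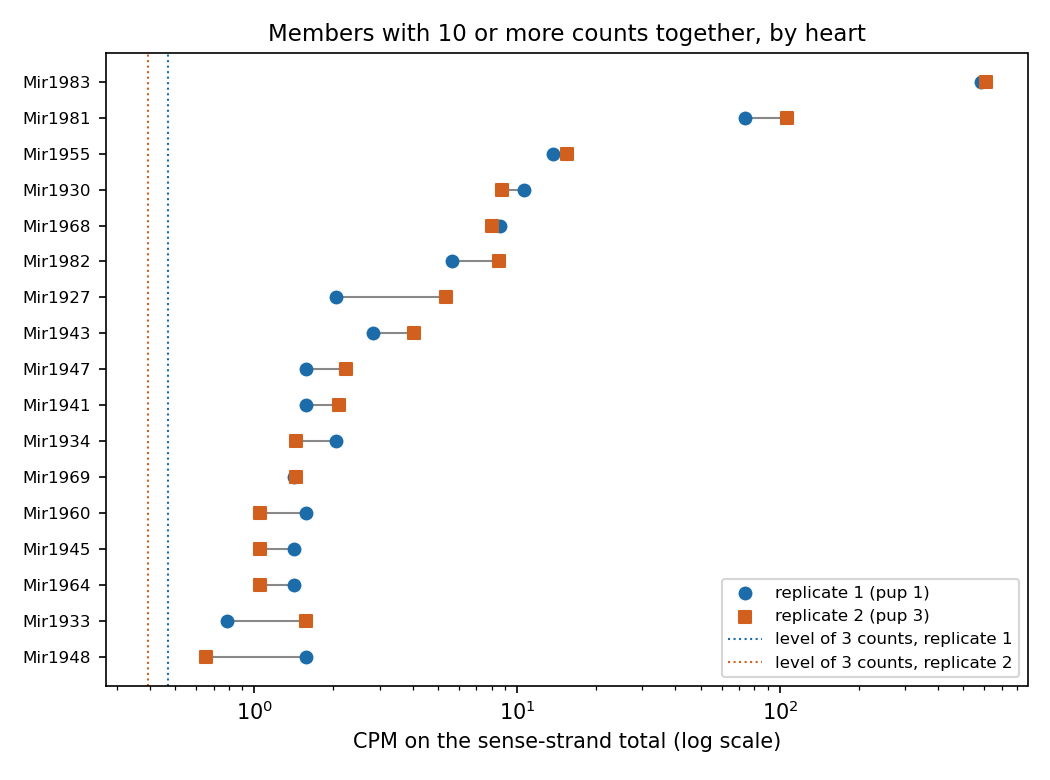
Level of each member whose counts in both libraries sum to 10 or more (y axis, ordered by mean) as CPM on a log x axis. Circles are replicate 1, squares replicate 2, grey lines join the 2 hearts, and dotted lines mark 3 counts in each library. Mir1983 stands near 595 CPM, Mir1981 near 90.1 CPM, and the other members at 15.5 CPM or less in either heart.

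The remaining detected members lay under 6 CPM in both hearts. Mir1927 (chr1:160295864-160295972, minus strand), in an intron of the Rab GTPase-activating protein gene Rabgap1l, had 13 and 41 counts, or 2.04 and 5.37 CPM. Mir1943, in an intron of Tmem184b, had 18 and 31 counts, or 2.82 and 4.06 CPM. Mir1947, in an intron of the metallopeptidase gene Lmln, had 10 and 17 counts, or 1.57 and 2.23 CPM. These are near the limit set for detection, which was 1.57 CPM in replicate 1 and 1.31 CPM in replicate 2. Mir1941, in an intron of the non-coding gene Gm35853 opposite the keratin gene Krt80, had 10 and 16 counts. Mir1934, with no host on its strand, had 13 and 11 counts. In this lower range the hearts' values overlapped between Mir1927 and Mir1943, between Mir1947 and Mir1941 and between Mir1941 and Mir1934, so no order among those neighbours holds beyond the spread.

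Just below the detection limit, 6 members had 10 or more counts when both libraries were summed. Mir1969 had 9 and 11 counts, Mir1960 in the fatty acid oxidation gene Hadhb had 10 and 8, and Mir1948 in Ttc39c had 10 and 5. Mir1945, Mir1964 and Mir1933 each had 17 counts in all. Of the rest, 12 members had between 1 and 8 counts together, which is too few to set one above another. All 47 members below the detection limit held 69 counts in replicate 1 and 84 in replicate 2, fewer than Mir1955 alone in either heart.

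The members at 0 were not spread evenly over the numbers. The numbering has its widest gap between Mir1912 and Mir1927, a division noticed after the counts had been seen. Of 16 members up to Mir1912, 0 were detected and 15 had 0 counts in both hearts, the exception being Mir1902 with 2 counts in replicate 2. From Mir1927 on, 11 of 42 were detected, 17 had fewer counts and 14 had 0. The lowest numbers also differed in position. Of the 16 up to Mir1912, 11 (68.8%) overlapped an exon on their own strand, against 4 of 42 (9.52%) from Mir1927 on, where 24 were intronic. Among those over an exon, Mir1893, Mir1894 and Mir1907 in the lower block also lay in an intron of another transcript of the host. So did Mir1930, Mir1956 and Mir1982 above it. In the lower block 5 overlapped a coding exon on either strand, such as Mir1895 opposite Cxxc4 and Mir1905 opposite Mex3a, against 1 of 42 above it. These blocks were compared by description alone.

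**Figure D3:**
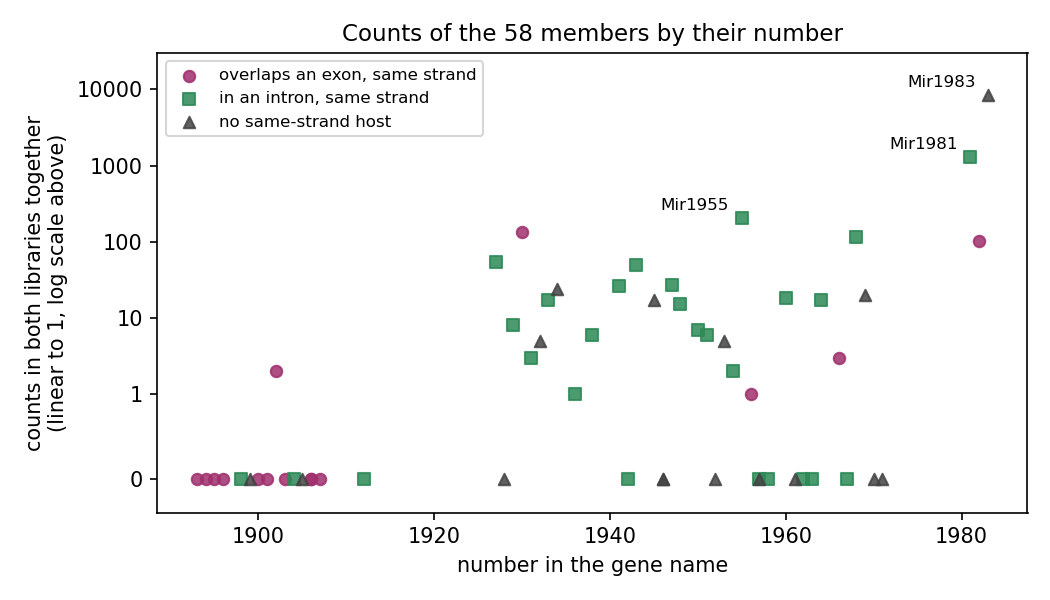
Counts of each of the 58 members in the 2 libraries together (y axis, linear up to 1 and log above) against the number in its name (x axis). Purple circles overlap an exon on the same strand, green squares lie in an intron and black triangles have no same-strand host. Of the 16 members up to Mir1912, 15 lie at 0, and the highest points are Mir1983, Mir1981 and Mir1955.

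Host genes were frequent among all members. On the same strand 42 of 58 members lay in an annotated gene, and 16 had no host (27.6%). Any annotated gene counted, also a non-coding one opposite a protein-coding gene, as for Mir1895, Mir1896, Mir1900 and Mir1901. Mir1967 lay in an intron of Gm20388 whose ends were 4111701 and 272635 nt away. Of the 58, 27 lay in an intron (46.6%) and 15 over an exon (25.9%). A member over an exon of any transcript was counted as exonic, even where another transcript has an intron, as for Mir1930 and Mir1982. Over the 1894 named genes 38.0% were intronic, 18.1% exonic and 43.9% without host. Of the 11 detected members 7 were intronic, 2 exonic (Mir1930 and Mir1982, both in non-coding exons) and 2 without host. Over the 358 named genes detected, 42.2% were intronic, 27.9% exonic and 29.9% without host. Of the 29 members at 0, 9 were intronic, 10 exonic and 10 without host. The host transcripts themselves are too long for these libraries and were not measured. Examples of members at 0, picked after their values were seen, are Mir1963 in the ryanodine receptor gene Ryr1, Mir1957a in the glucose transporter gene Slc2a1 and Mir1942 in the cytolinker gene Plec.

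The members were almost all solitary. Of the 58, Mir1912 alone had another microRNA gene within 10 kb on its strand, in the serotonin receptor gene Htr2c, where Mir764 also had 0 counts and Mir1264 had 0 and 3. Over all named genes 426 of 1894 had such a neighbour. In an exon of the imprinted non-coding gene Meg3, Mir1906-1 had 0 counts, and so did its copy Mir1906-2 on the X chromosome. Reads matching more than 1 place were not assigned to a gene. A shared stretch of 20 nt with another precursor was present in 6 of 58 members, against 929 of the 1894 named genes. Of those 929, 702 were genes without a Mir number. Over the 1051 genes with a number or a let-7 name it was 227, and over the 373 numbered 6000 and up it was 19. All 11 detected members were free of one, and of the 29 members at 0 it touched 5. With a stretch of 18 nt it was 9 of the 58 members, among them the detected Mir1934. Only annotated microRNA precursors were searched. Copies elsewhere in the genome, such as of the tRNA part of Mir1983, were not looked for.

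Among the members at 0, Mir1961 carries the seed of let-7 and Mir1928 that of miR-221, and each is set beside that relative, again with the seed in capitals.
miR-1961: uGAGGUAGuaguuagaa
let-7i-5p: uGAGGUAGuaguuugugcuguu
miR-1928: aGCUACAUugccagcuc
miR-221-3p: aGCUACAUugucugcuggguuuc
The mature miR-1961 is listed with 17 nt, and its first 13 bases are those of let-7i-5p. Mir1961 had 0 counts in both hearts and Mirlet7i a mean of 43813 CPM. The mature miR-1928, also of 17 nt, shares its first 10 bases with miR-221-3p. Mir1928 had 0 counts and Mir221 a mean of 85.2 CPM. No target was measured in these libraries.

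Predicted folds of detected and undetected members overlapped in range, and no difference between them was tested. The median minimum free energy was -0.446 kcal/mol per nt for the 11 detected members (range -0.714 to -0.330) and -0.427 for the other 47 (range -0.679 to -0.289). For the 29 members at 0 alone the median was -0.395 (range -0.679 to -0.289). Over all named genes it was -0.379, with -0.434 for those detected and -0.427 for those numbered below 300. The most stable precursor per nt was that of Mir1943, at -0.714. Mir1983, Mir1981 and Mir1982, the tRNA and whole-intron precursors, were at -0.399, -0.370 and -0.362, weaker than the median of detected members. Median GC content was 54.8% in detected members and 51.0% in the others. Precursors ran from 59 to 134 nt with a median of 83 nt, against a median of 90 nt over all named genes.

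Counts on the strand opposite a member were close to nil. In all 58 members they came to 4 in replicate 1 and 2 in replicate 2, with 1 count at most in any member and library. By the same measure 17 of all 1973 genes had 10 or more opposite-strand counts in both libraries.

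Between the 2 hearts the members were compared gene by gene with a 2-sided exact binomial test given the library totals, over the 435 genes with 10 or more counts together and with Benjamini-Hochberg adjustment over all of them. Of the 17 members tested 2 were higher in replicate 2 and 0 in replicate 1, while over all genes tested 19.1% were higher in replicate 2 and 12% in replicate 1. The members had few counts, with a median of 27 together against 393 over all genes tested, and 11 of the 17 were detected in both libraries. Their log2 ratios were above 0 in 10 and below 0 in 7, with a median of 0.06 beside 0.02 for all genes tested. The median absolute log2 ratio was 0.48 in the members and 0.21 over all genes tested.

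Mir1981 was 1.45-fold higher in replicate 2 (log2 ratio 0.54, exact binomial adjusted p = 4.65e-10). For Mir1927 the ratio was 2.63-fold in the same direction (log2 ratio 1.36, exact binomial adjusted p = 0.00559), on 13 and 41 counts. Mir1983, with the most counts of the set, had a ratio of 1.04 (exact binomial adjusted p = 0.181). Mir1982, the other whole intron, had 1.51-fold more in replicate 2 on 101 counts and did not pass (exact binomial adjusted p = 0.157). The test compares these 2 libraries and allows for sampling noise alone. When a biological coefficient of variation of 0.1 or 0.2 was preset, the edgeR exact test called 0 of the 17 members, with 2 and 1 at an unadjusted p under 0.05, and both Mir1981 and Mir1927 had an edgeR adjusted p of 0.390 at 0.1 and 1 at 0.2.

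**Figure D4:**
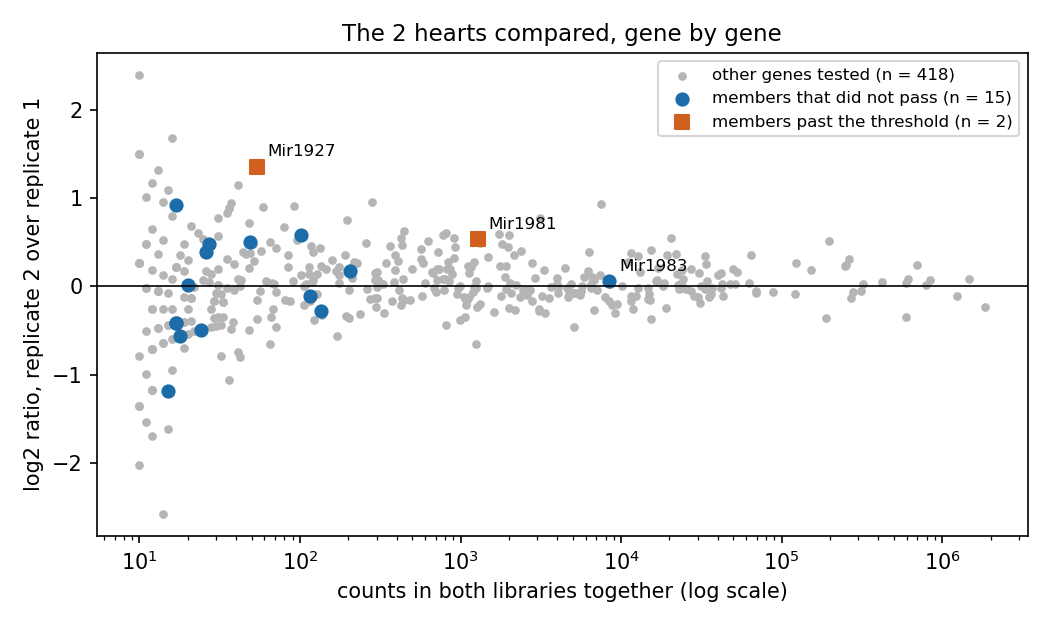
Log2 ratio of replicate 2 over replicate 1 (y axis) against the counts in both libraries together (log x axis) for the 435 genes tested. Grey points are other genes, blue circles the 15 members that did not pass and orange squares the 2 members past the threshold. Mir1981 lies at 0.54 and Mir1927 at 1.36, while Mir1983 lies at 0.06, and the spread of all genes widens toward low counts.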

How the data were processed

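The deposited tables hold whole-number read counts per gene, which the authors made from 1 alignment file per library on build mm10 with GENCODE annotation M4, per the text files that accompany them. The sources used here do not name the aligner, the counter or the trimming. Each table has 3 columns of counts and no header. The first equals the sum of the others in every gene row, and the second, with all but 7.15% and 7.22% of gene counts, was read as the sense strand. Reads that matched several places (35.9% and 34.6%) are listed apart from genes and were left out, as were those unmapped (12.6% and 15.5%) and in no gene (1.93% and 2.28%).

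Names, positions and hosts came from GENCODE M21 on the same build, which matched 1894 of 1973 identifiers, and the mature sequences and tRNA genes from RefSeq (GRCm38.p6). Hosts are same-strand genes other than microRNA genes. Hairpin ends were called at intron ends within 3 nt, and all 22 such genes met them exactly. Folds were predicted with RNAfold 2.7.2. Log2 ratios used 0.5 added counts. With 1 group and no contrast, no quasi-likelihood test could be fitted. edgeR 4.0.16 (TMM factors, exact test) and DESeq2 1.42.0 (size factors) served as alternatives, with R 4.3.3, Python 3.11.15 and SciPy 1.17.1. The exact binomial step was run on counts simulated with sampling noise alone, which is what the test itself assumes. It called 1.26% of 239 unchanged genes and 95.7% of 47 genes changed 4-fold. This cannot show how it behaves under variation between animals.

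The members, lists and tests were chosen with earlier results of these data known. Members named were all those with 10 or more counts in both libraries, those past the threshold between hearts and the 3 others with most counts, with hosts, neighbours and markers. Others were named after their values were seen.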

Additional observations from a re-analysis of the deposited data

How the results depend on the processing

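The number of detected members followed the minimum count. It was 24 with 1 count in both libraries, 20 with 3 and 5 with 50, and 10 to 13 with both strands counted, the larger library thinned or either library alone. With 1 count the percentage of members detected was 41.4%. The members' share of counts was 0.0695% with both strands counted, 0.0863% with Mir126a left out of the total and 0.0153% without Mir1983. Of the 17 members tested between hearts 2 also passed with TMM or DESeq2 scaling, with no filter, with both strands or after thinning. With a minimum of 100 counts it was 1, since Mir1927 was then not tested, and with a variation of 0.1 or 0.2 preset in edgeR's exact test it was 0 (over all genes tested 1 and 0, or 29 and 4 at an unadjusted p under 0.05). The adjusted p of Mir1927 ran from 0.00529 to 0.0114 over the other settings. The median level of detected members was 5.65 CPM in replicate 1 and 7.99 CPM in replicate 2. Of 33 levels of single members recomputed with another scaling or strand 31 moved by less than the spread between hearts; the exceptions were Mir1983 at 552 CPM and Mir1968 at 7.71 CPM with both strands in the total. No paired analysis was possible because the labels give 1 group. Without a second library the test between hearts cannot be run. At this depth members under 10 counts cannot be ranked.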

Other observations

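Of the 22 genes whose hairpin is a whole annotated intron, 8 had 10 or more counts in both libraries, among them Mir1981 and Mir1982. In these 8 CPM was higher in replicate 2, by 1.36-fold to 1.90-fold, a pattern noticed after the values had been seen and given here without a test. Over all 435 genes tested between the hearts 235 had a ratio above 0. Of the other 14 whole-intron genes, with few counts, 6 were higher in replicate 2, 3 were higher in replicate 1 and 5 had 0 counts in both. By the exact binomial test 3 of the 8 passed, Mir3102, Mir1981 and Mir877, beside 83 of all 435 genes (19.1%) that passed in that direction. With a variation of 0.1 preset in edgeR's exact test 1 of the 435 genes passed. Of the 22 introns, 21 began with GU and ended with AG in the annotated sequence. The 8 genes came from 8 different hosts, and Mir3102, in Arhgef17, led them at 118 CPM in replicate 1 and 160 CPM in replicate 2.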
